A study of Mus musculus with 9 samples.

Results

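A set of 9 genes that mark the innervation of skeletal muscle was followed through disuse and early return to load in mouse gastrocnemius. They are the acetylcholine receptor subunit genes Chrna1, Chrnb1, Chrng, Chrnd and Chrne, the synaptic kinase gene Musk, and Ncam1, Runx1 and Scn4a, whose transcript levels are known to depend on the motor nerve. The 9 genes were taken by symbol from 55487 genes in the count table, each matched to 1 gene identifier, and 8 of them were among the 14851 genes with enough read pairs to test. Chrng was not. Transcripts of whole muscle were sequenced after poly-A selection in wild-type male C57BL/6 mice according to the sample labels, which give no age. The study's text names the substrain C57BL/6J, and females are named in its description of the unloading procedure. The Control group held 4 libraries from mice in conventional cages. The Unloading group held 2 libraries from mice whose hindquarters were lifted by a line at the tail for 10 days. The Reloading group held 3 libraries from mice lifted for the same 10 days and then let bear weight in their cage for 1 day. Whether the libraries of a group came from separate mice is not stated in the labels, so the tests measure the spread between libraries. The comparisons ask whether loss of load, with the nerve left in place, moved genes that denervation is known to move.

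In adult muscle the acetylcholine receptor is a pentamer of alpha, beta, delta and epsilon subunits made by the nuclei under the nerve ending, where nerve-derived agrin acts through Lrp4 and the kinase MuSK to gather receptors. Fetal muscle carries the gamma subunit in place of epsilon. Cutting the nerve is known to bring gamma back, to raise the alpha, beta and delta subunits along the whole fibre, and to raise Ncam1, Runx1 and Myog. Myogenic factors bind E-boxes in the receptor gene promoters, and ETS-family factors act through a short element called the N-box in the epsilon promoter.

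The promoters of 4 receptor subunit genes are shown as a description, and their part in the differences below was not tested. RefSeq gave promoter entries for 7 of the 9 genes in build GRCm38.p6, the build of the count table, with a second start for Runx1. The 250 bases before each start were searched on both strands for the E-box CANNTG, its form CAGCTG (which any CANNTG search also finds), the N-box CCGGAA and the Runx element TGTGGT. Capitals mark CANNTG and CCGGAA. Bases annotated as exon were left off, which for Chrnb1 leaves the 124 bases between it and Fgf11, the upstream gene on the same strand. Chrna1 lies at chr2:73580339-73580588 on the minus strand, Chrnb1 at chr11:69795944-69796067 on the minus strand, Chrng at chr1:87205561-87205809 on the plus strand and Chrne at chr11:70619217-70619444 on the minus strand.
Chrna1: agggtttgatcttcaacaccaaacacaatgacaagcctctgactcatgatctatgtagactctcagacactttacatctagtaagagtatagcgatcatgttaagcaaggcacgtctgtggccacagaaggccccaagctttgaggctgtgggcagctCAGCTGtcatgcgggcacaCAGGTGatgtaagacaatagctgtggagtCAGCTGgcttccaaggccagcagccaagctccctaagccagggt
Chrnb1: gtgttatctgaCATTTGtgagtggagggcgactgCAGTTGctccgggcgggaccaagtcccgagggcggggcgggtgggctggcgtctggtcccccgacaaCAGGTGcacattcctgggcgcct
Chrng: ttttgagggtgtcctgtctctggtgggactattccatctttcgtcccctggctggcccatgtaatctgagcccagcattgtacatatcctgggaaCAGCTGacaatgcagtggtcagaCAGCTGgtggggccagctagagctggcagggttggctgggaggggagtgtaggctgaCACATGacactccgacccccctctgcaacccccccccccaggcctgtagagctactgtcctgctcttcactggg
Chrne: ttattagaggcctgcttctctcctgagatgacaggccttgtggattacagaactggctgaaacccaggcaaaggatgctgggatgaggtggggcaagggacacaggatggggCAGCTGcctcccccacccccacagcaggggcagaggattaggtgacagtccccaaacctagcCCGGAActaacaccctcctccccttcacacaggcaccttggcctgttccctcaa
CANNTG occurred 3 times each in the windows of Chrna1, Chrnb1, Chrng and Musk and 1 time in that of Chrne. It occurred 3 times at 1 of the 2 Runx1 starts and 0 times at the other. Of 32851 mouse promoter windows of the same length, 66.2% held at least 1 match, a share that does not count matches per window. CAGCTG was found 2 times in Chrna1 and in Chrng and 1 time in Chrne and in Musk, and in 13.0% of all windows. CCGGAA was found in Chrne and at 1 of the 2 Runx1 starts, and in 12% of all windows. TGTGGT matched no window of these genes and 14.0% of all windows. The Scn4a window held none of the 4 elements. These matches describe the letters and say nothing of binding.

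The libraries held 9252443 to 19612101 read pairs assigned to genes. Values are given as counts per 1000000 read pairs (CPM) after TMM scaling, a factor that makes libraries of different RNA composition comparable, or as CPM per kilobase of exon where genes are compared with each other. Mitochondrially encoded transcripts took 9.36 to 10.6% of Control read pairs, 9.61 to 10.1% of Unloading and 6.49 to 6.75% of Reloading read pairs, and without TMM scaling the median gene moved by 0.27 on the log2 scale between Reloading and Unloading and by 0.25 between Reloading and Control. Skeletal muscle fibre markers summed to 169560 to 182650 CPM in Control, 172470 to 177380 CPM in Unloading and 124920 to 137210 CPM in Reloading. Not every marker followed the sum. Acta1 measured 25679 to 31029 CPM in Control and 16413 and 18635 CPM in Unloading, while Des measured 3603 to 3806 CPM and 4636 and 4738 CPM. Keratinocyte markers summed to 315 CPM in Control 2 and 145 CPM in Reloading 1, and to 4.32 to 6.43 CPM in the other 7 libraries, so results were also computed without Control 2 and Reloading 1.

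Unloading raised 1 of the 8 tested genes, the beta subunit gene Chrnb1, at an adjusted p under 0.05 (edgeR quasi-likelihood test, Benjamini-Hochberg over all tested genes), and lowered none. At an unadjusted p under 0.05 Chrna1 and Chrne were also higher and none was lower, and DESeq2 and limma voom each called Chrnb1 alone. Of all tested genes 4.40% rose and 5.50% fell in that comparison. After 1 day of reloading 4 genes stood above Control (Chrna1, Chrnb1, Ncam1 and Runx1) and Scn4a stood below, where 22.1% of all tested genes rose and 21.3% fell. Against Unloading, Reloading raised Ncam1 and Runx1 and lowered Scn4a, where 18.5% rose and 19.0% fell. With library totals alone the balance of all calls between Reloading and Unloading turned from 2743 higher and 2819 lower to 5250 higher and 1090 lower, and that between Reloading and Control from 3287 and 3169 to 6028 and 1484. Each pair of comparisons shares a group of libraries.

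**Figure D1:**
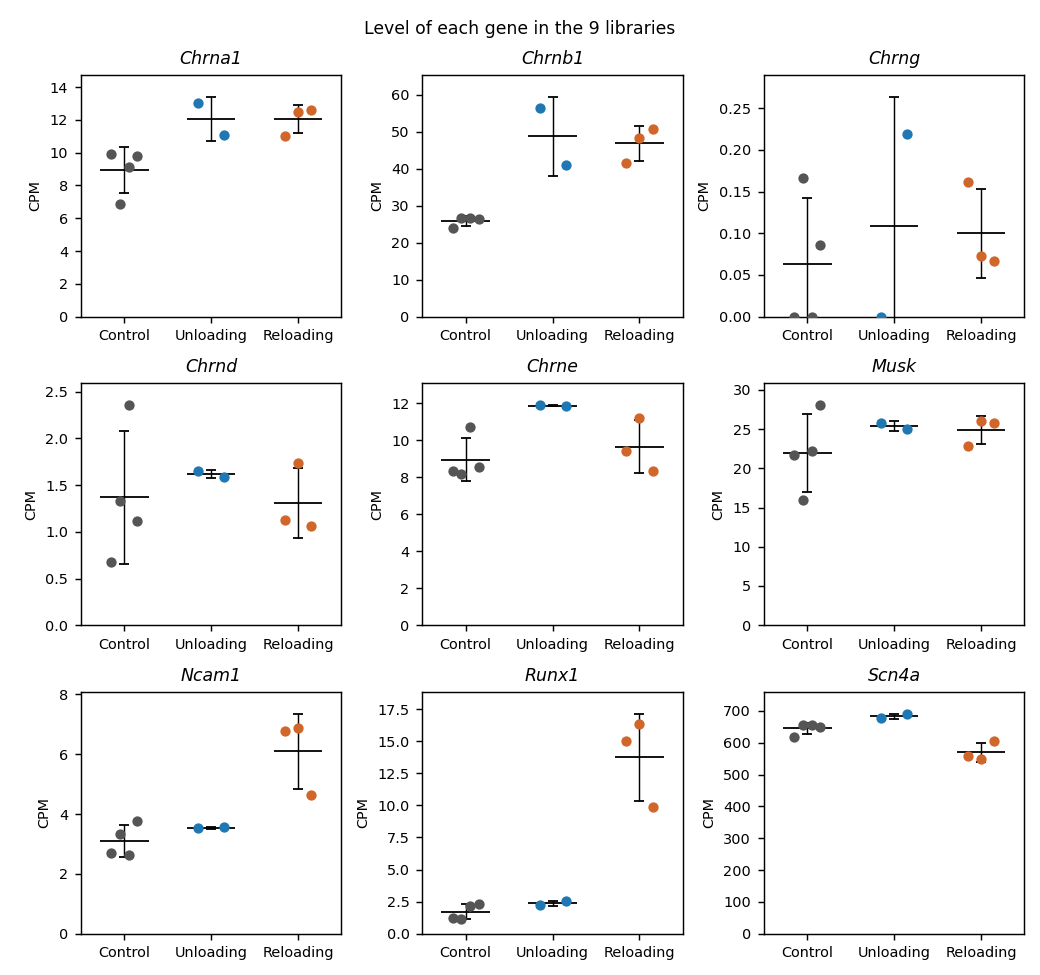
CPM (vertical axes, each starting at 0) of the 9 genes in the Control (n = 4), Unloading (n = 2) and Reloading (n = 3) libraries; points are libraries, horizontal lines means and bars 1 SD. Chrnb1 is high in Unloading and Reloading, Runx1 and Ncam1 are high in Reloading, and Chrng stays at 0.219 CPM or less.

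Chrnb1 encodes the beta subunit, shared by the fetal and adult receptor (ENSMUSG00000041189, chr11:69784036-69795943, minus strand). It measured 23.9, 26.7, 26.8 and 26.3 CPM in the Control libraries. In Unloading it measured 56.4 and 41.1 CPM, and in Reloading 41.5, 48.2 and 50.8 CPM. All 5 libraries of mice that had been unloaded lay above all 4 Control libraries, and the Unloading and Reloading ranges overlapped. The rise was 0.90 ± 0.12 on the log2 scale (SE, adjusted p = 0.000463), 1.87-fold, for Unloading against Control. Reloading against Control gave 0.85 ± 0.10 (adjusted p = 1.25e-05), and Reloading against Unloading -0.05 ± 0.12 (adjusted p = 0.767). Both rises passed the threshold in all 20 alternative settings run. Fgf11, which ends 124 bases upstream on the same strand, measured 2.59 to 4.14 CPM over the 9 libraries and gave a log2 difference of 0.03 ± 0.19 for Unloading against Control (adjusted p = 0.933).

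Chrna1 encodes the alpha subunit, which carries the acetylcholine binding site (ENSMUSG00000027107, chr2:73563215-73580338, minus strand). Its values were 9.92, 6.88, 9.15 and 9.78 CPM in Control, 13.0 and 11.1 CPM in Unloading and 11.04, 12.5 and 12.6 CPM in Reloading. As for Chrnb1, no Control library reached any library of the other groups. The differences were smaller, 0.44 ± 0.13 on the log2 scale for Reloading against Control (adjusted p = 0.0127) and 0.43 ± 0.14 for Unloading against Control, which did not pass the test (adjusted p = 0.0696) but did in 2 of the 20 alternatives (lowest adjusted p = 0.0255). The call against Control after reloading was kept in all 20 alternatives, with adjusted p up to 0.0484.

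Chrne, the adult epsilon subunit gene (ENSMUSG00000014609, chr11:70614883-70619216, minus strand), measured 8.35, 8.21, 10.7 and 8.58 CPM in Control. Unloading gave 11.9 and 11.9 CPM and Reloading 9.43, 11.2 and 8.34 CPM. The Unloading libraries lay above all others, but neither the difference from Control (0.40 ± 0.14 on the log2 scale, adjusted p = 0.0890) nor that of Reloading from Unloading (-0.30 ± 0.15, adjusted p = 0.125) passed the test. Each passed in 2 of the 20 alternatives, with lowest adjusted p of 0.0316 and 0.0471. Chrnd, the delta subunit gene (ENSMUSG00000026251, chr1:87190607-87200070, plus strand), was counted at 6 to 33 read pairs per library. It measured 0.677 to 2.36 CPM in Control, 1.65 and 1.58 CPM in Unloading and 1.06 to 1.74 CPM in Reloading, with all groups overlapping. Its difference between Unloading and Control was 0.17 ± 0.37 on the log2 scale (adjusted p = 0.813), which at this depth leaves a range of -0.56 to 0.91 within 2 SE.

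Chrng, the fetal gamma subunit gene (ENSMUSG00000026253, chr1:87204657-87212694, plus strand), was near its detection limit in every group. It had 0, 2, 0 and 1 read pairs in the Control libraries, 0 and 4 in Unloading and 2, 1 and 1 in Reloading. A count of 3 read pairs corresponds to 0.164 to 0.338 CPM in these libraries, and 1 library, Unloading 2, was above it. Of the read pairs of Chrng and Chrne together, Chrng took 0.704% in Control (3 of 426, exact Clopper-Pearson 95% interval 0.145 to 2.04%). The share was 1.05% in Unloading (4 of 380, 0.288 to 2.67%) and 0.995% in Reloading (4 of 402, 0.272 to 2.53%), intervals that cover counting error only and overlap throughout. The difference of Chrng from Chrne in log2 CPM per kilobase averaged -6.78 ± 0.64 in Control (SD, n = 4), -6.97 ± 0.92 in Unloading (n = 2) and -6.60 ± 0.37 in Reloading (n = 3). These values carry a prior count of 2, which alone sets Chrng in libraries with 0 read pairs (log2 CPM of -2.73). Their size and SD therefore depend largely on that setting. A 2-sided exact permutation test gave p = 0.800 for Unloading against Control, where 0.133 is the smallest p that 15 arrangements allow, and p = 0.6 and p = 0.743 for Reloading against Unloading and Control, where 0.200 and 0.0571 are the smallest. A shift from epsilon to gamma was therefore not detected. For counting error alone, the share of Chrng was bounded at 2.67% in Unloading and 2.53% in Reloading, and a shift within these limits was not detectable at this depth. The permutation test could not have reached 0.05 with these group sizes, so it does not decide the question.

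Together the 5 subunits summed to 18.0 ± 1.25 CPM per kilobase in Control (SD, n = 4), 29.6 ± 4.56 in Unloading (n = 2) and 27.4 ± 2.22 in Reloading (n = 3), and the lowest library after unloading, at 24.9, was above the highest Control library, at 19.7. Chrnb1 made up 57.0 ± 2.89% of this sum in Control, 64.8 ± 4.39% in Unloading and 67.5 ± 3.13% in Reloading, while the share of Chrne was 29.4 ± 1.96%, 24.1 ± 3.65% and 20.9 ± 2.96%. The alpha subunit is present in more copies per receptor than the others, yet Chrna1 stood at 11.3, 9.33 and 10.0% of the summed level. Levels per kilobase use all annotated exons, so a gene whose annotated exons exceed its main transcript is placed too low. In whole muscle, more transcript per cell cannot be told apart from a changed share of the cells or fibre regions that make it.

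**Figure D2:**
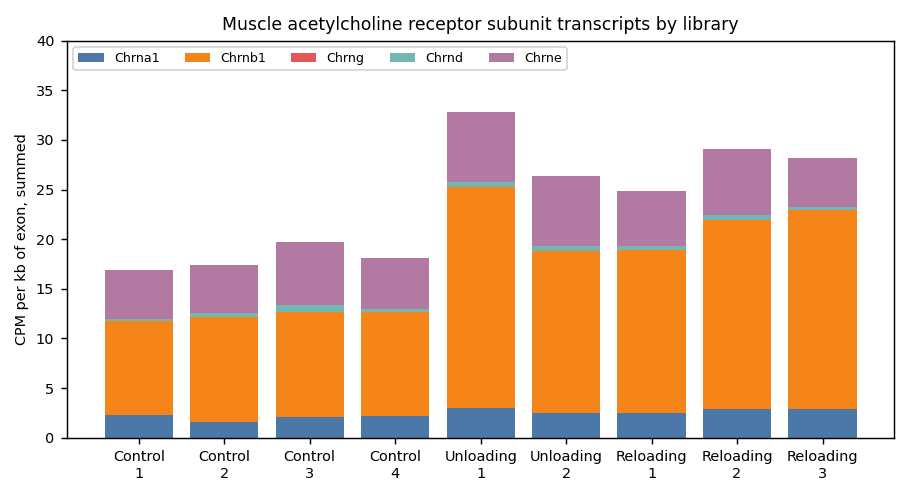
Summed CPM per kilobase of exon (vertical axis) of the 5 muscle receptor subunit genes in each of the 9 libraries, stacked by gene. Control sums run from 16.9 to 19.7, Unloading and Reloading sums from 24.9 to 32.8, and Chrnb1 takes most of each bar while Chrng is too low to see.

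In each group the 9 genes spanned a wide range of levels per kilobase. In Control the order ran from Scn4a at 91.6 ± 2.58 CPM per kilobase through Chrnb1 at 10.2 ± 0.54, Musk at 5.82 ± 1.3, Chrne at 5.30 ± 0.70 and Chrna1 at 2.04 ± 0.32. Chrnd followed at 0.416 ± 0.217, Ncam1 at 0.359 ± 0.062, Runx1 at 0.143 ± 0.050 and Chrng at 0.0151 ± 0.0191 (SD, n = 4). Musk and Chrne did not differ beyond their spread, nor did Chrnd and Ncam1. In Unloading Chrne, at 7.03 ± 0.02, and Musk, at 6.73 ± 0.16, exchanged places and the other positions were as in Control. In Reloading Runx1, at 1.14 ± 0.28, and Ncam1, at 0.703 ± 0.146, stood above Chrnd at 0.398 ± 0.113.

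Musk, the receptor tyrosine kinase that answers agrin (ENSMUSG00000057280, chr4:58285960-58374303, plus strand), spanned 16.0 to 28.1 CPM in the Control libraries. This range held all other libraries, at 25.8 and 25.0 CPM in Unloading and 22.9, 26.0 and 25.8 CPM in Reloading. No comparison passed the test. Unloading against Control gave 0.21 ± 0.15 on the log2 scale (adjusted p = 0.414, range within 2 SE -0.09 to 0.51) and Reloading against Control 0.18 ± 0.14 (adjusted p = 0.292).

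Ncam1 encodes the neural cell adhesion molecule, found in adult muscle at the synapse, on satellite cells and on Schwann cells (ENSMUSG00000039542, chr9:49502136-49798925, minus strand). It measured 2.71, 3.32, 2.64 and 3.77 CPM in Control and 3.52 and 3.55 CPM in Unloading. Reloading gave 6.77, 6.87 and 4.64 CPM, each above all 6 libraries of the other groups. Unloading did not differ from Control beyond the spread (0.18 ± 0.21 on the log2 scale, adjusted p = 0.636). Reloading was higher by 0.96 ± 0.18 than Control (adjusted p = 0.000550) and by 0.78 ± 0.21 than Unloading (adjusted p = 0.00873). The latter call was lost without Unloading 1 (adjusted p = 0.0501) or Unloading 2 (adjusted p = 0.0599).

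Runx1, a transcription factor that limits wasting in denervated muscle and is also active in blood cells (ENSMUSG00000022952, chr16:92601466-92826149, minus strand), showed the largest difference among the 8 tested genes. It measured 1.24, 1.16, 2.14 and 2.32 CPM in Control, 2.25 and 2.51 CPM in Unloading and 14.99, 16.3 and 9.87 CPM in Reloading. The Reloading libraries were far above the rest, whereas Unloading overlapped Control. Reloading was 7.78-fold above Control (2.96 ± 0.22 on the log2 scale, adjusted p = 1.20e-07) and 5.70-fold above Unloading (2.51 ± 0.26, adjusted p = 4.67e-06), and both calls were kept in all 20 alternatives. Unloading against Control gave 0.45 ± 0.31 (adjusted p = 0.390).

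Scn4a encodes the adult skeletal muscle sodium channel (ENSMUSG00000001027, chr11:106318592-106353288, minus strand). It measured 618, 656, 656 and 649 CPM in Control, 676 and 689 CPM in Unloading and 558, 548 and 604 CPM in Reloading. The 3 groups did not overlap, with Reloading lowest, but the differences were small. Reloading was lower by -0.26 ± 0.07 on the log2 scale than Unloading (adjusted p = 0.0102) and by -0.18 ± 0.06 than Control (adjusted p = 0.0267), and Unloading differed from Control by 0.08 ± 0.07 (adjusted p = 0.483). Both falls rested on the scaling. With library totals alone they became -0.01 (adjusted p = 0.894) and 0.06 (adjusted p = 0.395), while the median gene moved up by 0.27 and 0.25. The fall against Unloading did not pass without Unloading 2 (adjusted p = 0.0539), and that against Control did not pass without Control 3 (0.0610), Control 4 (0.0545), Reloading 1 (0.0864) or Reloading 2 (0.113), the values in brackets being adjusted p, nor without Control 2 and Reloading 1 together (adjusted p = 0.127) or without the filter on low counts (adjusted p = 0.0813). Skeletal muscle fibre markers fell in the same comparisons, 7 of 9 against Unloading with a median of -0.34 and 6 of 9 against Control, where 1 rose, with a median of -0.30. Over all tested genes 19.0% fell against Unloading and 21.3% against Control. With library totals alone 4 of the 9 markers fell and 0 rose against Unloading (median -0.10). Against Control 4 fell and 1 rose in that setting (median -0.06). The part of the fibre markers in the Scn4a difference was not tested.

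**Figure D3:**
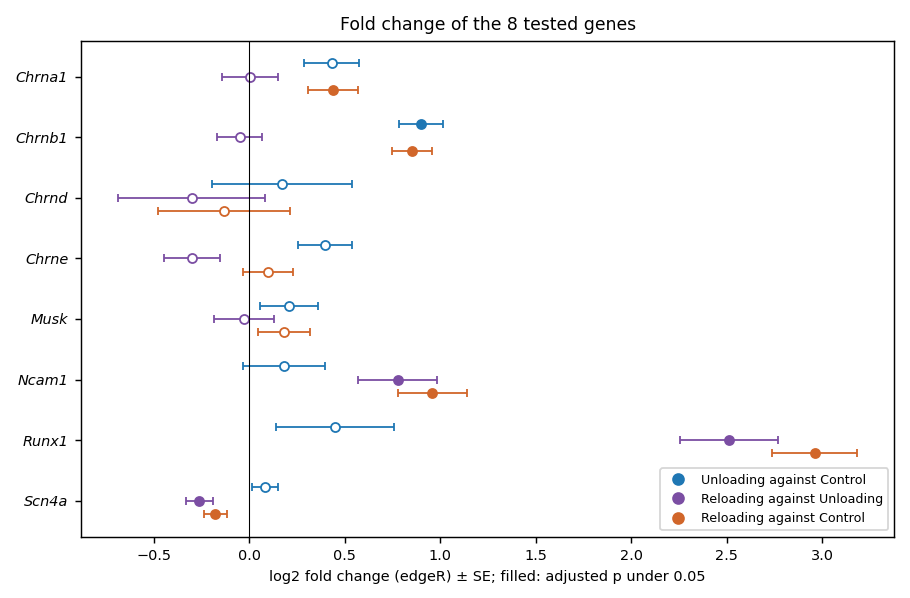
Log2 fold change with its SE (horizontal axis) for the 8 tested genes in the 3 comparisons, filled where the adjusted p was under 0.05. Chrnb1 lies near 0.9 in both comparisons with Control, Runx1 and Ncam1 lie to the right in both comparisons of Reloading, and Scn4a lies slightly to the left of 0 there.

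Of 12 other sodium channel genes 7 were tested. Over all tested genes 4.40% rose and 5.50% fell in Unloading against Control, and 22.1% rose and 21.3% fell in Reloading against Control. Unloading raised 1 of them, the auxiliary subunit Scn3b (0.92 ± 0.27, adjusted p = 0.0458), a call lost with limma voom (adjusted p = 0.0716) and with library totals alone (adjusted p = 0.0505). Reloading raised 3 and lowered 2 against Control, Scn4b, another auxiliary subunit, being among the lowered (-0.68 ± 0.07, adjusted p = 4.03e-06). Of 16 other acetylcholine receptor genes, neuronal nicotinic and muscarinic, 2 had enough read pairs to test, Chrna2 and Chrna10, and neither passed in any comparison by edgeR, DESeq2 or limma voom. Chrna2 was lower in Reloading than in Control at an unadjusted edgeR p of 0.0390.

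The wider synapse was followed in a list of 28 neuromuscular junction genes, of which 26 were tested. Over all tested genes 4.40% rose and 5.50% fell in Unloading against Control. In Reloading the shares were 18.5% and 19.0% against Unloading and 22.1% and 21.3% against Control. Unloading raised 1, the ubiquitin ligase Lnx1 (0.94 ± 0.26 on the log2 scale, adjusted p = 0.0340), and lowered 1, the intermediate filament gene Nes (-0.39 ± 0.11, adjusted p = 0.0425), with a list median of 0.03 against 0.00 for all tested genes. The Lnx1 call was lost with DESeq2 (adjusted p = 0.0746) and the Nes call with limma voom (adjusted p = 0.0528). Reloading raised 13 and lowered 3 against Unloading, with a median of 0.26 against 0.03, and raised 13 and lowered 4 against Control, with a median of 0.31 against 0.01. With library totals alone the counts became 17 and 1 (median 0.51) and 18 and 0 (median 0.55), where the median of all genes was 0.27 and 0.25. Nes rose most, from 29.7 and 30.5 CPM in Unloading to 145, 133 and 106 CPM in Reloading (2.09 ± 0.12, adjusted p = 1.63e-08). Against Unloading it was followed by Col13a1, a synaptic collagen (1.70 ± 0.40, adjusted p = 0.00410), Etv4, an ETS factor (0.88 ± 0.30, adjusted p = 0.0324), Erbb2, a neuregulin receptor (0.74 ± 0.25, adjusted p = 0.0287), Utrn, the synaptic relative of dystrophin (0.72 ± 0.12, adjusted p = 0.000324), and Lama4, a laminin chain (0.70 ± 0.14, adjusted p = 0.00106). DESeq2 did not call Etv4 (adjusted p = 0.150) or Erbb2 (adjusted p = 0.0785). Rapsn, whose product anchors the receptor, measured 27.6 to 32.9 CPM over the 9 libraries and gave a log2 difference of 0.03 ± 0.09 at Unloading against Control, with 0.0044 ± 0.09 and 0.04 ± 0.08 for Reloading against Unloading and against Control. The genes lowered against Unloading included the dystrophin-complex gene Sntb1 (-0.37 ± 0.14) and the agrin receptor gene Lrp4 (-0.42 ± 0.12), and those lowered against Control also included Dtna (-0.21 ± 0.08), all named after their values were seen. None of these 3 passed with library totals alone, where Dtna gave 0.03 (adjusted p = 0.799). With a replicate block by description number Lrp4 and Sntb1 were not called against Control (adjusted p = 0.0555 and 0.0719). Lnx1 (1.03 ± 0.24, adjusted p = 0.00260) and Agrn, the agrin gene (0.67 ± 0.13, adjusted p = 0.000588), were among the genes above Control after reloading.

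Of 20 further genes known to rise after denervation 19 were tested. Over all tested genes 4.40% rose and 5.50% fell in Unloading against Control. Unloading raised Cdkn1a, a cell cycle inhibitor, from 6.64 to 12.8 CPM in Control to 26.3 and 19.9 CPM (1.43 ± 0.20 on the log2 scale, adjusted p = 0.000928), and Eda2r, a receptor of the TNF family (0.68 ± 0.09, adjusted p = 0.000570). It lowered Myh3, embryonic myosin (-1.07 ± 0.25, adjusted p = 0.0159), and Myod1, a myogenic factor (-0.61 ± 0.18, adjusted p = 0.0391). The list median for Unloading was 0.02. Myog, the myogenic factor through which denervation is known to act on the receptor genes, measured 2.37, 3.23, 3.79 and 3.52 CPM in Control and 2.84 and 3.28 CPM in Unloading, a log2 difference of -0.09 ± 0.24 (adjusted p = 0.854). In Reloading it measured 5.72, 9.18 and 9.47 CPM, above all other libraries (1.40 ± 0.23 against Unloading, adjusted p = 0.000250).

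Reloading raised 12 of the 19 and lowered 1 against Unloading, with a median of 0.87, and raised 12 and lowered 2 against Control, with a median of 0.97. Over all tested genes 18.5% rose and 19.0% fell against Unloading, and 22.1% rose and 21.3% fell against Control. With library totals alone the counts became 16 and 1 (median 1.11) and 14 and 0 (median 1.21). Among the largest rises against Unloading were those of Ankrd1, a stretch-responsive repeat protein (4.52 ± 0.24, adjusted p = 7.61e-09), Tnfrsf12a, the TWEAK receptor (4.23 ± 0.20, adjusted p = 2.47e-09), Rrad, a small GTPase (4.12 ± 0.27, adjusted p = 7.09e-08), Gdnf, a neurotrophic factor (2.18 ± 0.49, adjusted p = 0.00283), and Ampd3, AMP deaminase (1.86 ± 0.14, adjusted p = 1.75e-07). Ankrd1 went from 17.5 and 7.70 CPM in Unloading to 237, 314 and 294 CPM in Reloading. Gdnf had 1 to 11 read pairs in Control, 4 and 8 in Unloading and 24, 19 and 29 in Reloading. It passed the filter on low counts only through the Reloading libraries, so it could have been counted only as a rise. The lowered genes, named after their values were seen, were the ubiquitin ligases Fbxo32 (-0.67 ± 0.13 against Unloading, adjusted p = 0.000763) and, against Control, also Fbxo30 (-0.31 ± 0.12, adjusted p = 0.0437), which DESeq2 did not call (adjusted p = 0.0689). Against Control neither passed with library totals alone (adjusted p = 0.183 and 0.631). Of 6 genes known to fall after denervation, Unloading raised the chloride channel gene Clcn1 (0.33 ± 0.07, adjusted p = 0.0101). Reloading lowered 3 against Unloading, the transcriptional repressor gene Dach2 (-2.51 ± 0.33, adjusted p = 3.96e-05), the calcium buffer gene Pvalb (-0.65 ± 0.08, adjusted p = 1.29e-05) and Clcn1 (-0.51 ± 0.08, adjusted p = 0.000128), and the same 3 against Control, where Clcn1 gave 0.07 with library totals alone (adjusted p = 0.398). The fibre markers Tnnt3 (-0.70 ± 0.07), Tnni2 (-0.66 ± 0.07) and Ckm (-0.60 ± 0.07) fell against Unloading by amounts near that of Pvalb. These were among the steepest falls of the 9 fibre markers, whose median was -0.34, with 7 lower and 2 not called. Des, for example, went from 4636 and 4738 CPM in Unloading to 3899 to 4416 CPM in Reloading. The part of fibre transcripts in the falls of Dach2, Pvalb and Clcn1 was not tested. Dach2 measured 3.07 to 6.52 CPM in Control, 3.52 and 3.72 CPM in Unloading and 0.564 to 0.662 CPM in Reloading.

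**Figure D4:**
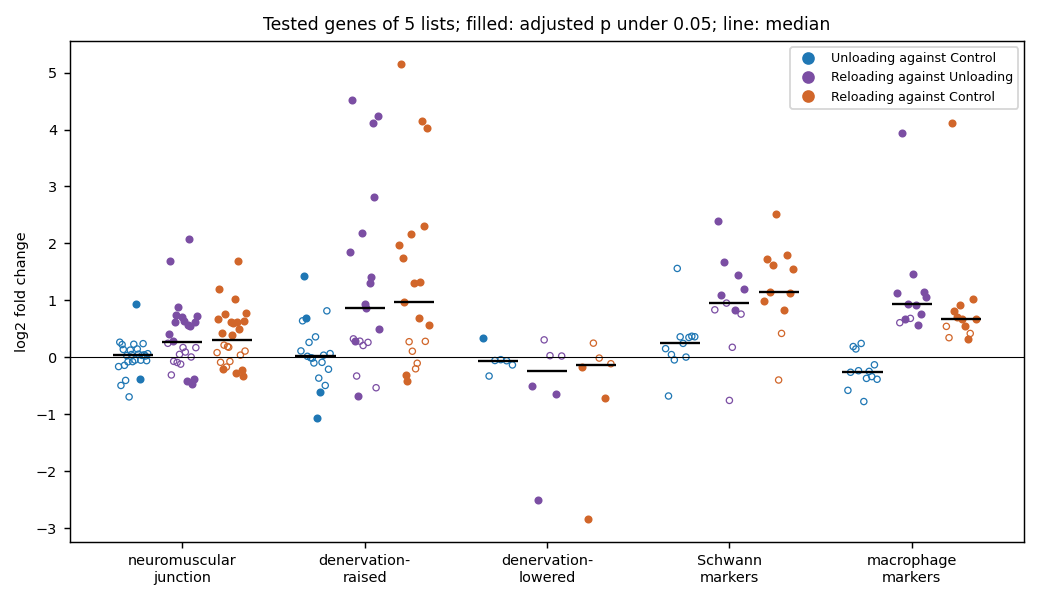
Log2 fold change (vertical axis) of the tested genes of 5 lists in the 3 comparisons, 1 point per gene, filled where the adjusted p was under 0.05, with the list median as a line. Set against Control, the denervation-raised median is 0.02 in Unloading but 0.97 in Reloading, and the Schwann and macrophage lists move up in both comparisons of Reloading.

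Markers of Schwann cells and macrophages moved in the same comparisons as Ncam1 and Runx1. Over all tested genes 18.5% rose and 19.0% fell in Reloading against Unloading, and 22.1% rose and 21.3% fell against Control. In Unloading against Control the shares were 4.40% and 5.50%. Schwann cell markers summed to 41.1 to 61.1 CPM in Control, 46.5 and 57.0 CPM in Unloading and 100 to 139 CPM in Reloading. Of 11 tested, 6 rose and none fell against Unloading and 9 rose and none fell against Control, among them the glial factor gene Sox10 (1.55 ± 0.29 against Control, adjusted p = 0.000556). Sox10, Cdh19, S100b, Egr2 and Ncmap passed the filter on low counts only through the Reloading libraries, so a fall of these genes could not have been counted. Sox10 had 5 to 8 read pairs in Control, 9 and 12 in Unloading and 19 to 23 in Reloading. At Unloading 0 of the 11 passed against Control by edgeR, DESeq2 or limma voom, with 0 at an unadjusted p under 0.05 by edgeR. Macrophage markers summed to 65.4 to 79.1 CPM in Control, 65.0 and 66.2 CPM in Unloading and 142 to 160 CPM in Reloading, and 10 of 12 rose against Unloading and 9 of 12 against Control. Cd68, a lysosomal marker, accounted for 42.9 to 50.4 CPM of the Reloading sums (3.93 ± 0.17 against Unloading, adjusted p = 1.12e-09), while the pan-leukocyte gene Ptprc went from 1.65 and 2.29 CPM to 2.91 to 4.19 CPM (0.76 ± 0.23, adjusted p = 0.0195, not called by DESeq2 at adjusted p = 0.102). Satellite cell markers summed to 63.0 to 80.3 CPM over all 9 libraries, and Pax7, which defines those cells, passed in no comparison. Of 7 tested, 1 rose and 1 fell in Reloading against Unloading, and 1 rose and 1 fell in Reloading against Control. In Unloading against Control 1 rose and 0 fell. Of 8 fibro-adipogenic progenitor markers 3 were higher and 2 lower in Reloading than in Unloading, 2 were higher and 0 lower in Reloading than in Control, and 2 were higher and 1 lower in Unloading than in Control. The lower one, Col1a1, was not called by DESeq2 (adjusted p = 0.116) or limma voom (adjusted p = 0.0543). T and NK cell markers summed to 0.449 to 1.74 CPM, and none of the 8 had enough read pairs to test. The part of these cells in the differences of Ncam1 and Runx1 was not tested. In the main edgeR fit 0 of the 10 skin markers passed in any comparison, with 5 lower at Unloading than in Control at an unadjusted p under 0.05. DESeq2 and limma voom called 0. With a replicate block by description number edgeR called 9 higher in Reloading than in Unloading. That block also called 9 lower in Unloading than in Control and 4 lower in Reloading than in Control.

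**Figure D5:**
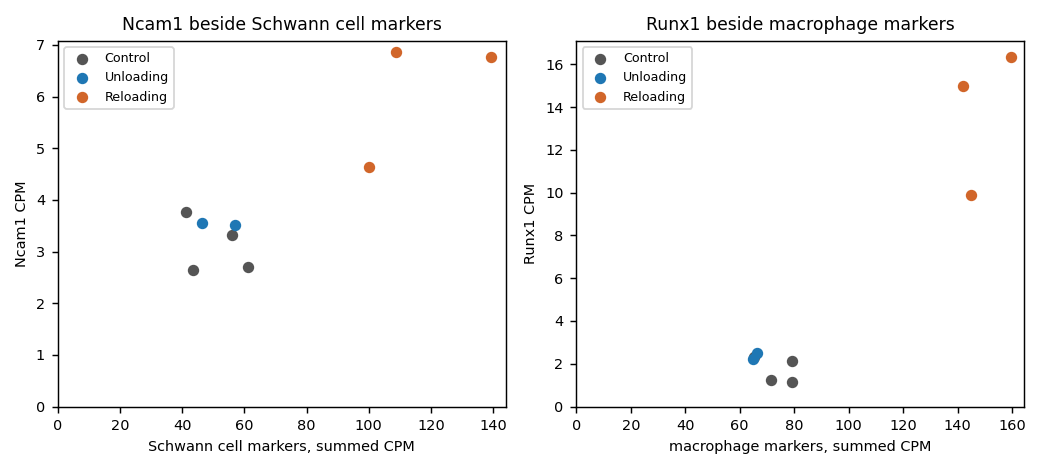
Ncam1 CPM against the summed CPM of Schwann cell markers (left) and Runx1 CPM against the summed CPM of macrophage markers (right) in the 9 libraries, coloured by group. The 3 Reloading libraries lie apart from the other 6 on both axes of both panels.

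The tested genes were also set beside the rest of the transcriptome by Pearson's r of log2 CPM over the 9 libraries, among 9867 other genes of at least 2 log2 CPM on average, as a description in which differences between groups count. Chrnb1 was most like Zpr1 (r = 0.986), Hnrnpm (0.972) and Yjefn3 (0.966), and Chrna1 most like Snrnp48 (r = 0.970), Slx4 (0.964) and Tanc2 (0.960). Runx1 was most like Pprc1 (r = 0.993), Ubxn4 (0.991) and Macf1 (0.990), the last of which is on the neuromuscular junction list, and Ncam1 most like Snrpa (r = 0.985), Eif4a-ps4 (0.981) and Klhl5 (0.974). Scn4a was most like Prpf19 (r = 0.981), Psmc3 (0.969) and Fam118b (0.963). Chrne was closest to Sgsm3 (r = 0.932), Naa40 (0.918) and Haus2 (0.891), Musk to Ccdc115 (r = 0.930), Col7a1 (0.915) and Coq10b (0.912), and Chrnd to Eif3s6-ps2 (r = 0.844), Tspan17 (0.841) and Porcn (0.835).

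Without Control 2 and Reloading 1, which held skin transcripts, Unloading again raised 1 of the 8 genes and Reloading raised 4 above Control and 2 above Unloading, with Chrnb1 at 0.91 on the log2 scale for Unloading against Control (adjusted p = 0.000942) and Runx1 at 2.73 for Reloading against Control (adjusted p = 2.57e-06). The fall of Scn4a against Control was no longer called. Over all tested genes 495 rose and 626 fell in Unloading against Control in this setting. In Reloading 2523 rose and 2559 fell against Control, and 2281 rose and 2347 fell against Unloading.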

How the data were processed

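RNA from gastrocnemius was poly-A selected and sequenced in 9 libraries, grouped by the intervention in their labels. Per the file headers and the submitters' processing notes, the authors aligned reads with STAR 2.7.3a to GRCm38.p6 and deposited whole-number counts per gene from featureCounts 2.0.3 (Ensembl release 102, read pairs, no strand), although the study's methods describe single reads. Unstranded counting cannot separate a gene from an antisense partner: 4.81% of the exonic bases of Ncam1 and 0.881% of those of Runx1 lie opposite another gene, each with 4 and 6 read pairs in all libraries together, and the other 7 genes share no exonic base. Gene symbols came from the deposited comparison tables, whose fold changes and p-values were not used.

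Counts were filtered with filterByExpr (minimum count 10, total 15), scaled by TMM and tested in edgeR 4.0.16 (R 4.3.3) with a quasi-likelihood fit of all 9 libraries by group. P-values were adjusted by Benjamini-Hochberg over 14851 genes at a threshold of 0.05. Log2 CPM used a prior count of 2. Counts of 9252443 to 19612101 read pairs per library make 1 read pair worth 0.0546 to 0.113 CPM. The scripts were tested on simulated data. Alternatives covered RLE size factors, library totals, mitochondrial genes left out, no filter, DESeq2 1.42.0, robust edgeR, limma 3.58.1 (voom), the compared groups alone, a replicate block, and libraries left out. Same-numbered Control and Reloading libraries by description number deviated together from their group means (r = 0.36, 0.14 and 0.16), the first being the 2 libraries with skin transcripts. The main tests are by group alone and take no account of these 3 pairs. A replicate block by description number was run only among the alternatives, and it also joins Unloading libraries of the same number. Replicates of a group differed beyond sampling noise. The 9 genes and all lists were chosen with earlier results of these data known. Named list genes were at most the 6 called per list and comparison with the largest absolute change, plus Myog, Rapsn and defining cell markers. Protein sequences were not used here. Some genes of the lists, and a planned comparison that needs 1 of them, are not reported here.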

Additional observations from a re-analysis of the deposited data

Results flagged for a closer look

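In the 4 Control libraries, 26 quantities (the 9 genes, 2 further genes, the subunit sum and the list sums) were examined for a library whose gap to its nearest neighbour was large for the group's range by Dixon's test for 4 values, which chance alone passes in about 1 of 20 groups, and 4 passed. Chrnb1 was low in Control 1 at 23.9 CPM, against 26.3 CPM in the nearest library. Chrne was high in Control 3 at 10.7 CPM, against 8.58 CPM in the nearest. Scn4a was low in Control 1 at 618 CPM, against 649 CPM in the nearest. Summed keratinocyte markers were high in Control 2 at 315 CPM, against 6.43 CPM in the nearest.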

How the results depend on the processing

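Of 480 member fold changes recomputed under 20 alternatives, 438 kept direction and side of the threshold, and of 240 counts of calls 222 stayed within 1.5 times. The cause of the departures below was not tested except that leaving out a library lowers the sample number. For Unloading against Control, calls over all genes ranged from 121 (without Unloading 1) to 1518 with 1 library left out (949 without Control 3), against 1470. Of the 9 genes 1 or 2 were called with 1 library left out, 2 with no filter and 3 with a replicate block by description number. The junction list gave 0 to 2 with 1 library left out (0 without Control 3, Unloading 1 or Unloading 2) and 0 without Control 2 and Reloading 1. The denervation lists together gave 5 calls, 2 to 5 with 1 library left out, 8 with no filter and 3 with the replicate block by title number. For Reloading against Unloading, members called ranged from 1 (without Unloading 2) to 4 and junction calls from 10 (without Unloading 1) to 16. Same-numbered libraries correlated at r = -0.20 to 0.08 by title number and 0.02 to 0.08 between Unloading and the other groups by description number in their deviations from group means. Control and Reloading libraries correlated more highly by description number, but the main fit paired no libraries. For Reloading against Control the block by description number changed no call of the 9 genes (Scn4a -0.20, adjusted p = 0.0149) and gave 15 junction calls against 17. With the title block Scn4a for Reloading against Control gave -0.18 (adjusted p = 0.0682) and Musk 0.33 (adjusted p = 0.0400). With the description block Chrna1 and Chrne for Unloading against Control gave 0.50 and 0.48 (adjusted p = 0.0299 and 0.0316) and Chrne for Reloading against Unloading -0.41 (adjusted p = 0.0471). Differences that changed sign were uncalled or lost their call. For Reloading against Unloading these were Chrna1 (-0.013 with RLE, -0.021 with no filter, -0.023 with DESeq2, -0.030 with either replicate block, -0.12 to 0.12 with 1 library left out), Chrnb1 (0.20 with library totals, 0.027 without Control 2 and Reloading 1, -0.27 to 0.18 with 1 left out) and Musk (0.22, 0.029 and -0.062 to 0.031 likewise). For Reloading against Control these were Chrnd (0.11 with library totals, -0.39 to 0.28 with 1 left out), Chrne (-0.028 to 0.20 with 1 left out) and Scn4a (0.061 with library totals). For Unloading against Control these were Chrnd (-0.014 to 0.59 with 1 left out), the junction median (-0.020 and -0.038 with the replicate block by title and by description number, -0.039 to 0.062 with 1 left out) and the denervation-raised median (-0.025 without Control 2 and Reloading 1, -0.026 to 0.066 with 1 left out). With 1 library left out, the Chrng to Chrne difference ranged from -0.28 to 1.00, -0.83 to 0.46 and -0.049 to 0.44 for Reloading against Unloading, Unloading against Control and Reloading against Control. Few read pairs limit Chrng and Chrnd, and the 2 Unloading libraries limit each comparison with that group.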
